A study of Mus musculus with 4 samples.

Results

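The library made from PαS cells treated with IL-17A alone was compared with the library made from PαS cells treated with BMP-2 alone, to describe which functions separated the cultures. These were 2 of the 4 libraries of the series, and 8511 of the 46517 genes listed averaged at least 50 exon reads across the pair. PαS cells are mesenchymal cells positive for PDGFRα and Sca-1, here sorted without CD45+, CD11b+, Ter119+, CD31+ or CD34+ cells from injured tissue in and around the femur of wild-type C57BL/6J mice. All 4 cultures were kept in osteogenic medium for 7 days: without cytokine, with IL-17A at 10 ng per ml, with BMP-2 at 500 ng per ml, or with both cytokines. There was 1 library per condition, so no difference has a replicate check, no test between the conditions was made, and no p-value is given. A gene ratio is the reads with IL-17A alone over the reads with BMP-2 alone, after scaling by TMM, a factor for library size and composition. Each ratio is followed by its exact (Clopper-Pearson) 95% interval, which covers only counting error, with each read taken as an independent count. Reads amplified by PCR without molecular identifiers cannot be taken as separate molecules, so the interval can be too narrow even for counting error. Against a library at 0 reads, the ratio was computed as if that library held 3 reads, the floor. Such a ratio is a bound on the ratio of the reads counted, given as "at least". It is not the limit of the 95% interval, which can reach below it.

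IL-17A is a cytokine of T cells whose receptor, in stromal cells, acts through NF-κB and C/EBP transcription factors and through stabilisation of inflammatory mRNA. Its known targets are neutrophil and monocyte chemokines, lipocalin and the feedback regulators of NF-κB. BMP-2 is a bone morphogenetic protein whose receptors phosphorylate SMAD1, SMAD5 and SMAD8 (encoded by *Smad9*). Its early targets include the *Id* genes and the inhibitory SMADs, and in osteogenic cells it is known to induce *Sp7*, which encodes the osteoblast transcription factor osterix.

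The libraries held 4190612 exon reads with IL-17A, 4719412 with BMP-2, 4673322 without cytokine and 4718877 with both, and TMM factors lay between 0.981 and 1.02. The stromal marker genes carried reads in all 4 libraries, including *Pdgfra* (375 to 739 reads) and *Ly6a*, which encodes Sca-1 (7636 to 10973). The endothelial genes *Pecam1* and *Cdh5* were at 0 reads in both libraries compared, while *Kdr*, encoding a VEGF receptor, had 0 reads with IL-17A and 70 with BMP-2. Another endothelial marker, the 1 with a mean of at least 50 reads, averaged 57 and was present in both libraries, with a log2 ratio of -0.15. The 10 endothelial markers summed to 12.8 scaled reads per 1000000 with IL-17A and 33.3 with BMP-2. The neutrophil and T cell markers summed to at most 1.45, the erythroid markers to at most 0.207 and the skeletal muscle markers to 73.4 with IL-17A and 63.2 with BMP-2, with *Myod1* at 0. The osteoclast markers summed to 88.4 and 138, nearly all of it *Ctsk* (352 and 600 reads), and *Calcr* and *Dcstamp* were at 0. Macrophage markers were unequal. The 16 genes summed to 171 scaled reads per 1000000 with IL-17A, 478 with BMP-2, 201 without cytokine and 136 with both. Most of that was *Lyz2*, a lysozyme gene of myeloid cells, with 509 reads with IL-17A, 1728 with BMP-2, 548 without cytokine and 410 with both. Of the defining markers, *Itgam*, *Cd68* and *Fcgr3* had 0 reads with IL-17A and 29, 50 and 49 with BMP-2, while *Adgre1* (17 and 0) and *Csf1r* (108 and 61) lay the other way, and *Ptprc* had 1 and 4 reads. The part of these cells in the differences described here was not tested.

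Genes higher with IL-17A and genes higher with BMP-2 were similar in number. Genes were called 2-fold apart where the ratio reached 2 or fell to 0.5 and the interval did not include 1. Among the 8511 genes, 626 (7.36%) were 2-fold apart and higher with IL-17A, and 528 (6.2%) were 2-fold apart and higher with BMP-2, together 13.6%. Counting only genes that were also 2-fold apart on the same side in reads unique to the gene and in spliced (exon-exon) reads left 482 (5.66%) and 375 (4.41%), together 10.1%, and these are called apart in all 3 kinds of reads. A gene whose mean reached 50 although 1 of the libraries held fewer than 50 reads had to differ, which held for 810 of the 8511 genes, 211 of the 482 and 200 of the 375. The median log2 ratio of all 8511 genes was -0.00, and the central 95% lay between -1.46 and 1.65. Of genes 2-fold apart in exon reads, 58 were lost in unique reads and 278 in spliced reads, and 1 was 2-fold apart on the opposite side in spliced reads.

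The share of genes apart followed the number of reads. It was 31.1% of the 1915 genes with a mean of 50 to 100 reads, 13.4% of the 3571 with 100 to 300, 3.08% of the 2211 with 300 to 1000, and 1.47% of the 814 with at least 1000. At 50 to 100 reads the SD of the log2 ratio over genes was 1.26, against 0.29 from counting alone. At 1000 reads and above it was 0.37 against 0.05. The intervals thus do not cover the spread between these libraries. Effects of the cytokines and differences between cultures cannot be told apart in that spread. Above a mean of 300 reads, a limit set after the values were seen, 34 of 3025 genes (1.12%) were higher with IL-17A and 30 (0.992%) higher with BMP-2 in all 3 kinds of reads.

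**Figure D1:**
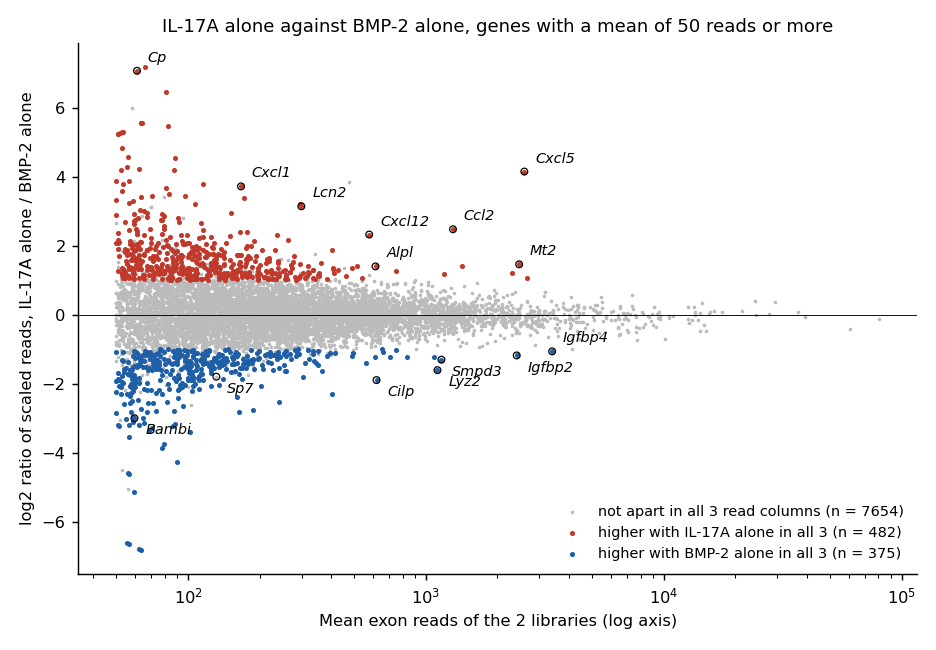
Each point is 1 of the 8511 genes, with the mean exon reads of the libraries with IL-17A alone and with BMP-2 alone on a log axis and the log2 ratio of their scaled reads on the vertical axis. Red and blue points are apart in all 3 kinds of reads (482 and 375 genes); the cloud narrows with reads, and *Cxcl5*, *Ccl2*, *Mt2*, *Igfbp2*, *Igfbp4*, *Smpd3* and *Lyz2* lie outside it at high reads.

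The known IL-17 response separated the cultures. Of 28 IL-17 target genes, 15 had a mean of at least 50 reads, and 9 of the 15 were higher with IL-17A in all 3 kinds of reads, where the background was 5.66% of genes. None was higher with BMP-2. The median log2 ratio of the 15 genes was 1.19, against -0.00 for all genes, and 14 of 15 ratios were above 1. For 3 of the 15 genes, *Cxcl1*, *Zc3h12a* and *Steap4*, the mean reached 50 through the library with IL-17A alone. All 3 are among the 9, and they had to differ to be counted at all.

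*Cxcl5* (ENSMUSG00000029371, chromosome 5, 90759360 to 90761624, plus strand, mm10), encoding a chemokine that attracts neutrophils, had the most reads with IL-17A among the 15. It had 4882 reads with IL-17A, 306 with BMP-2, 189 without cytokine and 6263 with both. The libraries with IL-17A were thus high and the others low. Its ratio was 17.8 (15.8 to 20.0), and 21.3 in spliced reads (18.0 to 25.5). *Cxcl1*, another neutrophil chemokine gene, had 308 reads with IL-17A, 26 with BMP-2, 27 without cytokine and 495 with both, a ratio of 13.2 (8.83 to 20.5). *Ccl2*, encoding a chemokine of monocytes, had 2167, 433, 313 and 2262 reads in the same order, a ratio of 5.57 (5.02 to 6.19). *Ccl7*, its neighbour on chromosome 11 and also a monocyte chemokine gene, was closer, with 3490, 1842, 1224 and 4714 reads and a ratio of 2.11 (1.99 to 2.23). After scaling, the library with both cytokines was the highest for *Cxcl5*, *Cxcl1* and *Ccl7*, and that with IL-17A alone for *Ccl2*.

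The regulators of the response were as far apart. *Nfkbiz*, encoding IκBζ, a nuclear cofactor that NF-κB needs at many IL-17 targets, had 527 reads with IL-17A, 64 with BMP-2, 28 without cytokine and 477 with both, a ratio of 9.17 (7.06 to 12.1). *Zc3h12a*, which encodes the endonuclease regnase-1 that degrades inflammatory mRNA, had 310, 33, 47 and 263 reads, a ratio of 10.5 (7.29 to 15.5). *Bcl3*, encoding another nuclear IκB protein, had 292, 62, 63 and 182 reads, a ratio of 5.24 (3.98 to 7.02). For *Zc3h12a* and *Bcl3* the libraries with BMP-2 alone and without cytokine were alike within counting error, with ratios of BMP-2 over none of 0.687 (0.426 to 1.10) and 0.963 (0.667 to 1.39).

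These were the 3 members of the list of NF-κB subunits and feedback regulators, 17 genes with enough reads, that were apart in all 3 kinds of reads. The background was 5.66%, and *Zc3h12a* was 1 of 2 members with fewer than 50 reads in 1 library. *Nfkbiz* and *Zc3h12a* are also on the IL-17 list and were counted there. The median log2 ratio of that list was 0.43. *Nfkbia*, encoding the inhibitor IκBα, had 438 reads with IL-17A and 287 with BMP-2, a ratio of 1.70 (1.46 to 1.98), and 438 without cytokine. The subunit gene *Rela* had a ratio of 1.02 (0.913 to 1.15). *Nfkb1* (41 and 91 reads, 0.502) and the kinase gene *Ikbkb* (233 and 488 reads, 0.532) lay on the other side and just short of 2-fold.

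Other IL-17 targets were less far apart. *Ptgs2*, encoding the cyclooxygenase that makes prostaglandins on induction, had 271 reads with IL-17A, 132 with BMP-2, 104 without cytokine and 400 with both, a ratio of 2.29 (1.85 to 2.84). The C/EBP transcription factor genes *Cebpb* and *Cebpd* had ratios of 1.61 (1.38 to 1.87) and 1.78 (1.47 to 2.16), and the stromelysin gene *Mmp3* 1.49 (1.14 to 1.95). *Vcam1*, an adhesion molecule gene, had a ratio of 1.55 (1.38 to 1.74). *Icam1*, another adhesion molecule gene, was the single tested member below 1, with 265 reads with IL-17A, 420 with BMP-2, 378 without cytokine and 357 with both, and a ratio of 0.703 (0.600 to 0.821).

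Among the 13 members with fewer reads, several were at 0 with BMP-2. *Saa3*, a serum amyloid gene, had 68 reads with IL-17A, 0 with BMP-2, 5 without cytokine and 24 with both, at least 25.2-fold higher with IL-17A. *Lif*, encoding leukaemia inhibitory factor, had 57, 0, 13 and 104 reads, at least 21.2-fold higher. *Tnfaip3*, encoding the NF-κB inhibitor A20, had 69, 0, 75 and 0 reads, and was thus also present without cytokine and at 0 with both. *Il6* had 43, 19, 13 and 44 reads and a ratio of 2.52 (1.44 to 4.58). *Csf3*, *Csf2* and *S100a9* had 0 reads in both libraries compared.

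Of the chemokine ligand genes, 8 of 27 had enough reads. In all 3 kinds of reads 5 were higher with IL-17A and 1 with BMP-2, where 5.66% and 4.41% of all genes were. Of these 5, 4 are also on the IL-17 list. For *Cxcl1* the mean reached 50 through the library with IL-17A alone, and for *Pf4* through that with BMP-2 alone. Over the 8 the median log2 ratio was 1.90. The fifth of those higher with IL-17A was *Cxcl12*, encoding the stromal chemokine that retains haematopoietic cells in the marrow, and its pattern was another one. It had 945 reads with IL-17A, 210 with BMP-2, 696 without cytokine and 268 with both, a ratio of 5.01 (4.31 to 5.85). Here the libraries with BMP-2 were low, at 0.295 times the untreated level with BMP-2 alone (0.252 to 0.345), and IL-17A alone was at 1.48 (1.34 to 1.63). *Pf4*, a chemokine gene of platelets and myeloid cells, was the member higher with BMP-2, with 28 and 79 reads and a ratio of 0.395 (0.247 to 0.614), 5 reads without cytokine and 26 with both. Of the 3 macrophage markers with a mean of at least 50 reads, 2 were higher with BMP-2 in all 3 kinds of reads, where 4.41% of all genes were. *Lyz2* was 1 of these, and none was higher with IL-17A by that rule. For the other of the 2, the mean reached 50 through the library with BMP-2 alone, so it had to differ to be counted at all. *Itgam*, *Cd68* and *Fcgr3* lay the same way as *Lyz2* with fewer reads, and *Csf1r* and *Adgre1* the other way. The part of macrophages in the level of *Pf4* was not tested.

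**Figure D2:**
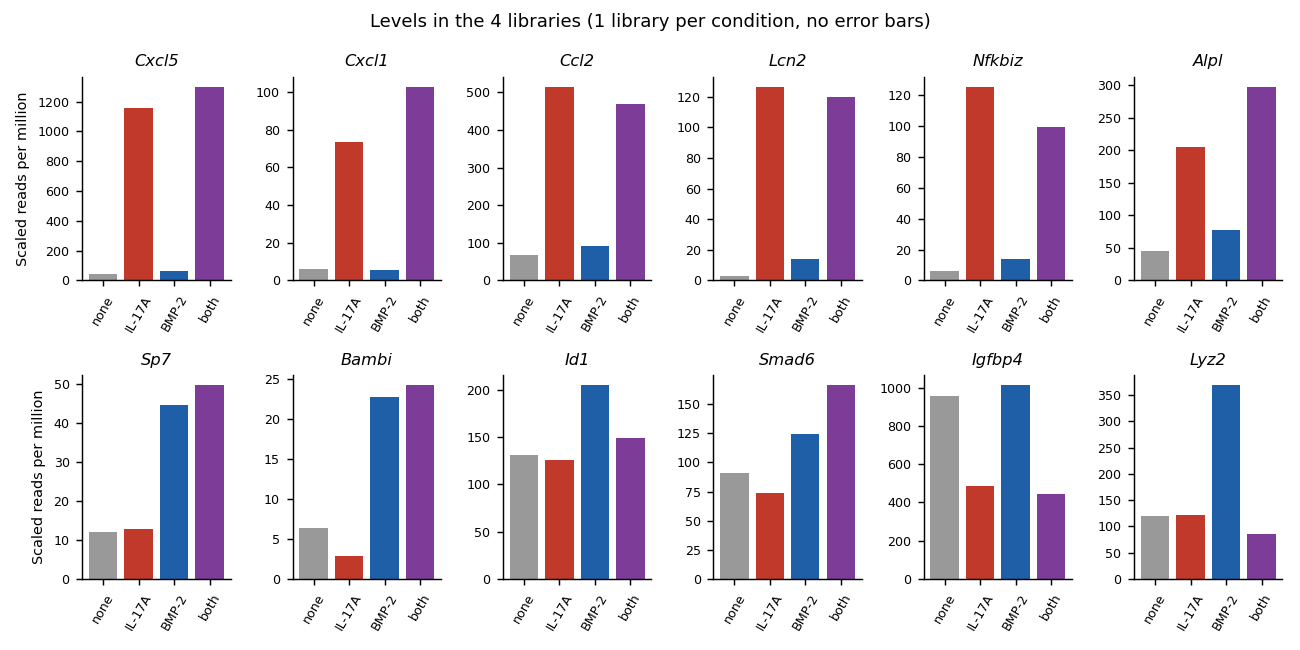
Scaled reads per 1000000 for 12 genes in the 4 libraries, from 0, with 1 bar per library and no error bars because each condition has 1 library. The 5 IL-17 targets of the upper row are high in the libraries with IL-17A, *Sp7* and *Bambi* are high in those with BMP-2, *Igfbp4* is low in those with IL-17A, and *Lyz2* stands out with BMP-2 alone.

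Of the genes of the acute phase, iron handling and complement, 17 had enough reads, and 5 of the 17 were apart in all 3 kinds of reads, all higher with IL-17A, against 5.66% of all genes. For 2 of the 5, *Cp* and *Steap4*, the mean reached 50 through the library with IL-17A alone. *Lcn2* and *Steap4*, among the 5, are also on the IL-17 list and were counted there. Over the 17 the median log2 ratio was 0.56, and the ferritin genes *Fth1* and *Ftl1*, which hold most reads of the list, were lower with IL-17A beyond counting error. *Lcn2*, encoding lipocalin-2, which binds bacterial iron carriers, had 532 reads with IL-17A, 67 with BMP-2, 12 without cytokine and 578 with both, a ratio of 8.84 (6.85 to 11.6). *Lcn2* was also 5.46-fold higher with BMP-2 alone than without cytokine (2.93 to 11.1). *Cp*, encoding the ferroxidase ceruloplasmin, had 121 reads with IL-17A, 1 with BMP-2, 0 without cytokine and 124 with both, a ratio of 135 (23.7 to 5366), with 86.9 in spliced reads and 41.0 with a pseudocount of 0.5 scaled reads per 1000000. *Steap4*, a metalloreductase gene, had 101, 0, 37 and 64 reads, at least 37.5-fold higher with IL-17A, and at least 5.57-fold in spliced reads (15 and 0).

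The complement genes had more reads and smaller ratios. *Serping1*, encoding the inhibitor of the first complement component, had 3099 reads with IL-17A, 1498 with BMP-2, 1758 without cytokine and 2383 with both, a ratio of 2.30 (2.17 to 2.45). *Cfb*, encoding factor B of the alternative pathway, had 467, 235, 326 and 107 reads and a ratio of 2.21 (1.89 to 2.60), with the fewest reads in the library with both. *C4b* had a ratio of 1.87 (1.67 to 2.09), and *C3* of 1.24 (1.06 to 1.45). *Ptx3*, encoding a long pentraxin, had 8413 and 6270 reads, a ratio of 1.49 (1.45 to 1.54). The ferritin heavy chain gene *Fth1* was at 0.915 (0.906 to 0.924), and the light chain gene *Ftl1* was the lowest of the list, at 0.758 (0.749 to 0.767).

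To show the letters around the start of genes that differed, promoter windows of 250 bases before the RefSeq start (GRCm38.p6) were searched on both strands for an NF-κB motif (GGGA, any 4 bases, then CC), a C/EBP motif (TTGCNNAA), a SMAD motif (GGCGCC) and a RUNX motif (TGTGGTTT). A palindrome counts once. The windows of 3 IL-17 targets follow, chosen because they were apart and hold such matches, on the gene's strand, 5′ to 3′, with all matches in capitals.

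Cxcl1 (chr5:90890995-90891244, plus strand): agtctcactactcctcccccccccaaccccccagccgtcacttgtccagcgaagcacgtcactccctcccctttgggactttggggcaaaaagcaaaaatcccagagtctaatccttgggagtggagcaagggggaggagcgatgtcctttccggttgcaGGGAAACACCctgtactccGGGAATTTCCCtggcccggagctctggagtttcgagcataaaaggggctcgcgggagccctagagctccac
Steap4 (chr5:7960222-7960471, plus strand): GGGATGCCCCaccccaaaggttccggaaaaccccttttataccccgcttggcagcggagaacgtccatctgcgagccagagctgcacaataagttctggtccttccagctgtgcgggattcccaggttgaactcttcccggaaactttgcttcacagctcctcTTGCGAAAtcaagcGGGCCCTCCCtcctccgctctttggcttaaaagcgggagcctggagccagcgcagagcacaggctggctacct
Ptgs2 (chr1:150099781-150100030, plus strand): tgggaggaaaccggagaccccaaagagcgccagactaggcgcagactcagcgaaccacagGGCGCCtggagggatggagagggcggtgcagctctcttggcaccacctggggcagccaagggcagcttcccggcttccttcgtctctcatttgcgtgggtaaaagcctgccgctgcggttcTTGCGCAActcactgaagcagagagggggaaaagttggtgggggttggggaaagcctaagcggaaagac

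*Cxcl1* held NF-κB matches beginning 90 and 71 bases before the start, *Steap4* a C/EBP match at 87 bases beside NF-κB matches on either strand, and *Ptgs2* a C/EBP match at 69 bases. Of the 15 IL-17 targets, 9 matched the RefSeq promoter table, and 3 of the 9 held the NF-κB motif and 4 of the 9 the C/EBP motif. Among the 6608 tested genes with a promoter in the table, the shares were 22.2% and 7.46%. Among all 482 genes apart and higher with IL-17A, 378 of them with a promoter, they were 21.2% and 7.67%, and among the 375 higher with BMP-2, 283 with a promoter, 22.3% and 6.36%. Over all 27025 promoters in the table they were 17.3% and 9.55%. A match is a string of letters and not a site of binding.

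On the BMP-2 side, the known targets of BMP-SMAD signalling lay together but by less than 2-fold. Of 20 BMP-SMAD target genes, 13 had enough reads; 11 of the 13 were lower with IL-17A than with BMP-2 beyond counting error and none was higher. By the same rule 2656 of all 8511 genes were lower. The median log2 ratio was -0.70. Of the 13, 3 were 2-fold apart in exon reads, all higher with BMP-2, where 6.2% of all genes were, and 1 was apart in all 3 kinds of reads. For 2 of the 13 genes, *Bambi* and *Msx1*, the mean reached 50 through the library with BMP-2 alone. Both are among the 3, and they had to differ to be counted at all. The 1 apart in all 3 kinds of reads is also of this sort.

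The gene apart in all 3 was *Bambi*, encoding a decoy receptor that dampens BMP and TGF-β signals. It had 12 reads with IL-17A, 107 with BMP-2, 29 without cytokine and 117 with both, a ratio of 0.125 (0.0626 to 0.227), and 0.190 in spliced reads. Both libraries with BMP-2 were high. *Id2*, encoding an inhibitor of basic helix-loop-helix transcription factors, had 151, 337, 272 and 319 reads, a ratio of 0.499 (0.409 to 0.606), and just missed 2-fold in unique reads. *Id1*, of the same family, had 532, 962, 604 and 719 reads and a ratio of 0.616 (0.553 to 0.685). *Id3*, which had the most reads of the list, had 4059, 5417, 4858 and 5509 and a ratio of 0.834 (0.801 to 0.869). For *Id3*, all 4 libraries thus lay close to each other.

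The inhibitory SMAD genes were also lower with IL-17A than with BMP-2. *Smad6* had 311 reads with IL-17A, 584 with BMP-2, 418 without cytokine and 802 with both, a ratio of 0.593 (0.515 to 0.682). *Smad7* had 192, 265, 164 and 338 reads, a ratio of 0.807 (0.667 to 0.975). *Atoh8*, a helix-loop-helix gene downstream of BMP receptors, had 1034, 1641, 1461 and 1435 reads, a ratio of 0.702 (0.649 to 0.759). The homeobox gene *Msx1*, with 33 and 78 reads, had a ratio of 0.471 (0.304 to 0.716) and too few spliced reads to be apart in them (0.557, 0.0504 to 3.89). *Gata2*, at 1.07 (0.841 to 1.36), did not differ beyond counting error.

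Against the untreated library, the median log2 ratio of the 13 BMP-SMAD targets was -0.30 with IL-17A alone and 0.37 with BMP-2 alone. These comparisons share the untreated library, so they are not independent of each other.

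*Dlx2*, a homeobox gene, had 56 reads with IL-17A, 124 with BMP-2, 68 without cytokine and 147 with both, a ratio of 0.503 (0.360 to 0.695). *Id4*, another *Id* gene, had 83, 179, 189 and 119 reads, a ratio of 0.516 (0.393 to 0.674). For *Id4* the untreated library was as high as that with BMP-2. Their promoter windows are shown because both lay next to 2-fold on the BMP-2 side and hold the palindrome GGCGCC, with all matches of the 4 motifs in capitals.

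Dlx2 (chr2:71546755-71547004, minus strand): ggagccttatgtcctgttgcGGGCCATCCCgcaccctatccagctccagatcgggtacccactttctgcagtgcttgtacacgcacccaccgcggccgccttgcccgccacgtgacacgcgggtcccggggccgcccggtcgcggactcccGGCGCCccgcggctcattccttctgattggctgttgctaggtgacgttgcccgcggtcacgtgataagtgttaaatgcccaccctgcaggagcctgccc
Id4 (chr13:48260866-48261115, plus strand): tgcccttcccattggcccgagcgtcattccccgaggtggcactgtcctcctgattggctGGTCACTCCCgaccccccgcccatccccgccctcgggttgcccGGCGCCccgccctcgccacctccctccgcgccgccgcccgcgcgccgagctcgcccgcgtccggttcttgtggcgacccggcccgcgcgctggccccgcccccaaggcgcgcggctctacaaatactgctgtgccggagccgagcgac

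GGCGCC began 99 bases before the start of *Dlx2* and 148 before that of *Id4*. It was in 3 of the 8 BMP-SMAD target promoters found in the table, in 18.3% of those of all tested genes, in 15.9% of those of genes apart and higher with BMP-2 and in 20.4% of those higher with IL-17A. The window of *Ptgs2* above, from the IL-17A side, holds it too. TGTGGTTT was in 0.91% of the promoters of tested genes, in 2 of 378 higher with IL-17A and in 6 of 283 higher with BMP-2.

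Of the osteoblast transcription factor genes, 9 had enough reads, and 3 of the 9, *Sp7*, *Dlx3* and *Msx1*, were 2-fold apart in exon reads, all higher with BMP-2, where 6.2% of all genes were. For *Dlx3* and *Msx1* the mean reached 50 through the library with BMP-2 alone. *Msx1* is also on the list of BMP-SMAD targets and was counted there. Over the 9 the median log2 ratio was -0.65, but -0.07 in spliced reads, and 0.26 and 0.53 for the members with means of at least 200 and 300 reads. *Sp7* (chromosome 15, 102356609 to 102366325, minus strand, mm10) had 54 reads with IL-17A, 209 with BMP-2, 55 without cytokine and 240 with both, a ratio of 0.288 (0.209 to 0.390). Both libraries with BMP-2 were high, and IL-17A alone was at the untreated level, with a ratio of 1.07 (0.721 to 1.59). The spliced reads of *Sp7* numbered 2 with IL-17A and 10 with BMP-2, so their ratio of 0.223 had an interval from 0.0237 to 1.05 and the gene was not apart in all 3 kinds of reads. *Dlx3*, a homeobox gene of osteoblasts, had 16, 88, 16 and 32 reads, a ratio of 0.202 (0.111 to 0.347), and was apart in all 3. *Runx2*, the gene of the master factor of the osteoblast lineage, had 59, 103, 103 and 80 reads and a ratio of 0.638 (0.455 to 0.887), with 1.21 (0.491 to 3.04) in spliced reads. *Atf4* lay the other way, at 1.45 (1.29 to 1.62).

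Of the matrix and mineralisation genes of osteoblasts, 13 had enough reads. Of these, 1 was higher with IL-17A and 1 with BMP-2 in all 3 kinds of reads, where 5.66% and 4.41% of all genes were, and the median log2 ratio was -0.01. The gene higher with IL-17A was *Alpl*, encoding the tissue-nonspecific alkaline phosphatase needed for mineralisation. It had 864 reads with IL-17A, 364 with BMP-2, 209 without cytokine and 1435 with both, a ratio of 2.64 (2.34 to 3.00). The untreated library was lowest and that with both highest, and IL-17A alone was 4.50-fold above untreated (3.87 to 5.26) and BMP-2 alone 1.70-fold (1.43 to 2.03). The gene higher with BMP-2 was *Smpd3*, encoding neutral sphingomyelinase 2, which mouse skeletons need for mineralisation. It had 620, 1705, 1762 and 264 reads, a ratio of 0.405 (0.369 to 0.444). For *Smpd3* BMP-2 alone was at the untreated level in exon reads, 0.947 (0.885 to 1.01), and both libraries with IL-17A were low. Most of these reads were not unique to the gene. Unique reads numbered 75 with IL-17A, 237 with BMP-2, 313 without cytokine and 56 with both. In them BMP-2 alone lay below the untreated library, and both libraries with IL-17A were again the low ones.

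The abundant matrix genes were close. *Col1a1*, encoding a chain of type I collagen, had 35633 reads with IL-17A and 37607 with BMP-2, a ratio of 1.06 (1.04 to 1.07), and *Col1a2* a ratio of 1.28 (1.26 to 1.30). *Sparc*, encoding osteonectin, was at 0.953 (0.940 to 0.967). *Spp1*, encoding osteopontin, had 6094, 4769, 3729 and 11039 reads and a ratio of 1.42 (1.37 to 1.48). Genes of late osteoblasts and osteocytes had few reads in either library: *Ibsp*, *Ifitm5* and *Mepe* were at 0, *Dmp1* had 1 and 0 reads, and *Bglap* 3 and 1.

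**Figure D3:**
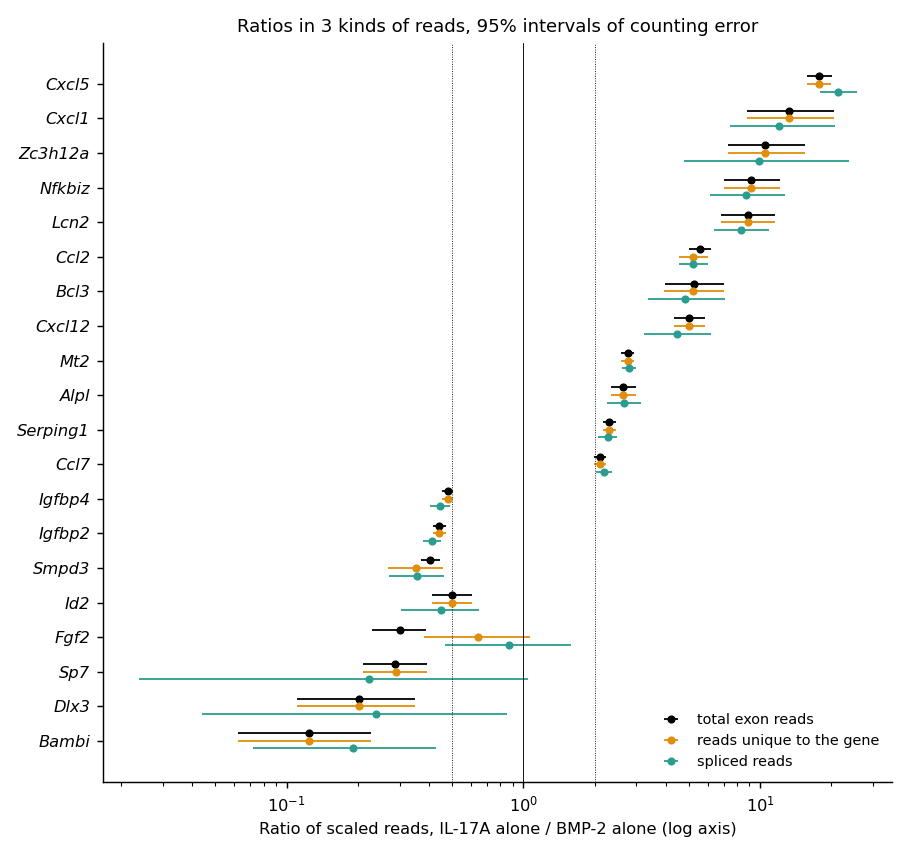
Ratios of scaled reads, IL-17A alone over BMP-2 alone, on a log axis for 20 genes in total exon reads, in reads unique to the gene and in spliced reads, with 95% intervals of counting error; dotted lines mark 2-fold. The 3 ratios lie together for most genes, while *Fgf2* moves from 0.300 to 0.866 and the interval of *Sp7* in spliced reads reaches past 1.

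Growth factor and receptor genes of the study were mixed, with 1 of 24 higher with IL-17A and 2 higher with BMP-2 in all 3 kinds of reads, where 5.66% and 4.41% of all genes were, and a median log2 ratio of -0.09. Counts this small are near the background. *Igfbp2* and *Igfbp4*, encoding binding proteins of insulin-like growth factors, were the 2 higher with BMP-2. *Igfbp2* had 1367 reads with IL-17A, 3452 with BMP-2, 4088 without cytokine and 1568 with both, a ratio of 0.441 (0.414 to 0.470). *Igfbp4* had 2042, 4750, 4387 and 2129 reads, a ratio of 0.479 (0.454 to 0.504). In both genes the libraries with IL-17A were low and those without it high. The gene higher with IL-17A was *Pdgfra*, the PDGF receptor gene whose protein was used to sort the cells. It had 698, 375, 739 and 695 reads, a ratio of 2.07 (1.83 to 2.36), and the library with BMP-2 alone stood apart as the low one. It was also the 1 apart of 10 genes for markers of the sort and of stroma, against 10.1% of all genes. The median log2 ratio of these 10 was 0.39.

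The ligand genes of the study gave smaller ratios. *Pdgfa* had 217 reads with IL-17A and 195 with BMP-2, a ratio of 1.24 (1.02 to 1.51), and *Pdgfc* 136 and 147, a ratio of 1.03 (0.810 to 1.31). *Tgfb1*, with 19 and 15 reads, was not detectably different at this depth (1.41, 0.679 to 2.98). *Fgf2*, encoding basic fibroblast growth factor, had 76 exon reads with IL-17A and 282 with BMP-2, a ratio of 0.300 (0.230 to 0.388). Among reads unique to *Fgf2* they were 26 and 45, a ratio of 0.643 (0.381 to 1.07), and in spliced reads the ratio was 0.866 (0.466 to 1.59). *Fgf2* overlaps the antisense gene *Nudt6*, and the amplified cDNA does not record strand. *Fgf7*, a fibroblast growth factor gene of stroma, had 1152, 644, 733 and 976 reads and a ratio of 1.99 (1.81 to 2.20), just under 2-fold.

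Among genes of paracrine trophic factors, 3 of 15 were higher with IL-17A in all 3 kinds of reads, against 5.66% of all genes, and none with BMP-2, with a median log2 ratio of 0.18. For all 3 the mean reached 50 through the library with IL-17A alone. *Gdnf*, encoding a neurotrophic factor, had 105 reads with IL-17A, 6 with BMP-2, 31 without cytokine and 16 with both, a ratio of 19.5 (8.66 to 54.3), and of 7.80 in spliced reads (7 and 1). *Angptl4*, encoding an inhibitor of lipoprotein lipase, had 132, 41, 75 and 45 reads and a ratio of 3.59 (2.51 to 5.22). For *Gdnf* and *Angptl4* the library with both cytokines was as low as or near that with BMP-2 alone. *Ereg*, encoding an EGF receptor ligand, had 102, 36, 86 and 218 reads, a ratio of 3.16 (2.14 to 4.75). *Csf1*, the macrophage growth factor gene, had 23219 and 25862 reads and a ratio of 1.00 (0.982 to 1.02).

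The BMP and TGF-β receptor and antagonist genes held 1 of 16 apart in all 3, against 10.1% of all genes. That gene had fewer than 50 reads in the library with BMP-2. *Smad3*, encoding the mediator of TGF-β signals, had 152 reads with IL-17A, 15 with BMP-2, 113 without cytokine and 199 with both, a ratio of 11.3 (6.63 to 20.7). Only the library with BMP-2 alone was low, and *Smad2* had a ratio of 0.923 (0.744 to 1.14). The activin receptor gene *Acvr2a* was 2-fold apart the other way in exon reads, at 0.469 (0.345 to 0.632), and at 0.575 in spliced reads. The median log2 ratio of the list was 0.13.

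Matrix genes outside the osteoblast list differed one by one. *Tnc*, encoding the matricellular protein tenascin-C, had 1992 reads with IL-17A, 832 with BMP-2, 1080 without cytokine and 1625 with both, a ratio of 2.67 (2.46 to 2.89). *Col18a1*, encoding a basement membrane collagen, had 450, 188, 368 and 249 reads, a ratio of 2.67 (2.24 to 3.18). *Col7a1*, encoding the collagen of anchoring fibrils, was higher with BMP-2, with 62 and 143 reads and a ratio of 0.483 (0.352 to 0.655). Of 19 collagen chain genes these were the 2 apart in all 3 kinds of reads, near the 10.1% of all genes, and the median log2 ratio was -0.10. The 4 cartilage genes with enough reads had a median log2 ratio of -0.79 and none was 2-fold apart, and the median was -0.21 with a filter at 10 reads; *Col2a1*, encoding type II collagen, had 320 and 696 reads (0.512, 0.447 to 0.585) and *Comp*, encoding a cartilage oligomeric matrix protein, 568 and 1251 (0.506, 0.457 to 0.559). *Tnc* was the 1 of 19 small leucine-rich and matricellular protein genes apart, against 10.1% of all genes, and the median of that list was 0.03. No gene of 13 for matrix metalloproteinases and inhibitors was 2-fold apart, with a median of -0.13. Of 16 CCN and YAP target genes, 1 was apart in all 3, against 10.1% of all genes, and the median was 0.15. That gene was *Amotl1*, encoding an angiomotin-like protein that binds YAP (221 and 115 reads, a ratio of 2.14, 1.70 to 2.71).

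In metabolism, 2 of 19 genes of glycolysis and glucose uptake were higher with IL-17A in all 3 and 1 with BMP-2, where 5.66% and 4.41% of all genes were. Both genes higher with IL-17A had fewer than 50 reads with BMP-2. *Slc16a3*, encoding a lactate exporter, had 264 reads with IL-17A, 38 with BMP-2, 47 without cytokine and 172 with both, a ratio of 7.74 (5.49 to 11.2), and both libraries with IL-17A were high. *Hk2*, encoding hexokinase 2, had 141, 48, 122 and 171 reads, a ratio of 3.27 (2.34 to 4.64) and of 8.24 in spliced reads (37 and 5), and the library with BMP-2 alone was the low one. *Gapdh* was at 1.02 (0.968 to 1.07) and *Eno1* at 1.00 (0.978 to 1.03), and the median log2 ratio of the list was 0.14. *Mt2*, encoding a metallothionein that binds zinc and copper, had 3514, 1421, 715 and 2943 reads, a ratio of 2.75 (2.59 to 2.93). It was the 1 of 19 oxidative stress and metallothionein genes apart, against 10.1% of all genes. *Mt1* was at 1.57 (1.49 to 1.65), and the median of that list was -0.12. None of 16 ATF4 amino acid supply genes was apart in all 3, with a median of 0.06; *Slc7a5*, encoding an amino acid transporter, was at 2.22 (1.81 to 2.72) and *Mthfd2*, encoding a mitochondrial folate enzyme, at 0.458 (0.387 to 0.540) in exon reads.

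Of 15 adipogenic and lipid genes, 2 were higher with BMP-2 in all 3 kinds of reads, against 4.41% of all genes, and none with IL-17A. *Cd36*, encoding a fatty acid receptor, had 169 reads with IL-17A, 406 with BMP-2, 275 without cytokine and 306 with both, a ratio of 0.464 (0.385 to 0.556). *Cidec*, encoding a lipid droplet protein, had 76, 207, 56 and 300 reads, a ratio of 0.409 (0.310 to 0.534). *Pparg*, the gene of the main adipogenic transcription factor, was at 0.668 (0.534 to 0.833) and *Adipoq* at 1.25 (1.02 to 1.53), so the list did not lie on 1 side, and its median log2 ratio was -0.17. *Cd36* is also expressed by macrophages, whose markers summed higher with BMP-2, mostly through *Lyz2*. *Itgam*, *Cd68* and *Fcgr3* lay the same way as *Lyz2*, and *Csf1r* and *Adgre1* the other way. The part of macrophages in the level of *Cd36* was not tested.

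Mitosis genes leaned to the IL-17A side by less than 2-fold: 19 of 25 ratios were above 1, against 4234 of all 8511, and the median log2 ratio was 0.29. *Bub1b*, a spindle checkpoint gene, had 369 reads with IL-17A, 193 with BMP-2, 148 without cytokine and 320 with both, a ratio of 2.13 (1.78 to 2.55). *Mki67*, the proliferation marker gene, was at 1.99 (1.60 to 2.48). *Cenpe*, encoding a kinetochore motor, lay far on the other side, with 49, 222, 147 and 227 reads and a ratio of 0.246 (0.177 to 0.336). The 24 DNA replication genes had a median of 0.05 and none 2-fold apart.

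The 13 interferon-stimulated and antigen presentation genes had a median log2 ratio of -0.22; 2 of them were 2-fold apart in exon reads, both higher with IL-17A, where 7.36% of all genes were, and 1 in all 3 kinds of reads. *B2m*, a component of MHC class I, was at 0.733 (0.704 to 0.763). *Myh11*, encoding smooth muscle myosin, was the 1 of 17 contractile genes apart, against 10.1% of all genes, and was higher with BMP-2. It had 96, 319, 158 and 336 reads and a ratio of 0.335 (0.264 to 0.422). The median of that list was 0.09. *Acta2* of the same list had 20844 and 21745 reads and a ratio of 1.07 (1.05 to 1.09).

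Housekeeping functions did not separate the cultures. None of 33 cytosolic ribosomal protein genes, 29 respiratory chain genes, 19 endoplasmic reticulum chaperone genes or 19 cholesterol synthesis genes was 2-fold apart. Their median log2 ratios were -0.08, -0.11, 0.04 and 0.08. Of the 8 Wnt ligand and antagonist genes, which are not housekeeping genes, none was 2-fold apart either. Their median was -0.26, and its sign depended on the filter on reads.

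**Figure D4:**
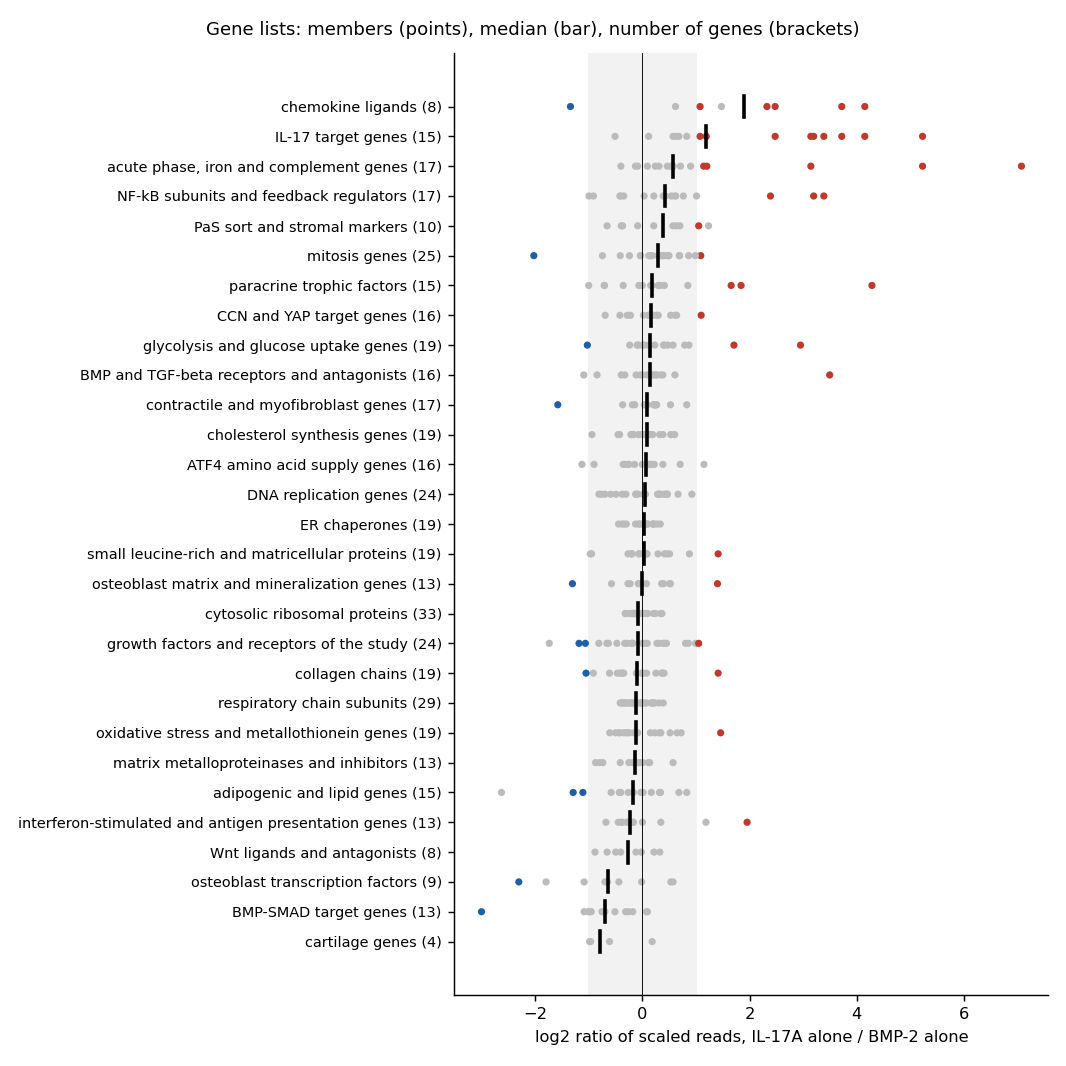
Log2 ratios of scaled reads, IL-17A alone over BMP-2 alone, for the genes of 29 function lists with a mean of at least 50 reads, with a black bar at the median of each list and shading between 2-fold limits. Red and blue points are apart in all 3 kinds of reads; chemokine ligands and IL-17 targets have the highest medians (1.90 and 1.19), and cartilage, BMP-SMAD target and osteoblast transcription factor genes the lowest (-0.79, -0.70 and -0.65), of which the first and the last depend on the filter or kind of reads.

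Most of the genes with the most extreme ratios belonged to none of the lists. Of the 15 genes highest on the IL-17A side by the interval limit nearer 1, *Cxcl5*, *Cp* and *Steap4* were on a list, and *Cxcl5* alone had a mean above 100 reads. The others included *Stk38l*, encoding a kinase of the NDR family (128 reads with IL-17A, 0 with BMP-2, 46 without cytokine and 215 with both), and *Clspn*, encoding the checkpoint adaptor claspin (127, 0, 47 and 67). On the BMP-2 side were *Tns4*, encoding a tensin (0 reads with IL-17A, 119 with BMP-2, 21 without cytokine and 0 with both), and *Gli2*, encoding a transcription factor of hedgehog signalling (9, 146, 87 and 19). *Stk38l* and *Clspn* thus had reads in the untreated library and were at 0 with BMP-2 alone, and *Tns4* was at 0 in both libraries with IL-17A.

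Among the better covered genes above 300 reads, the IL-17A side held *Cxcl5*, *Ccl2*, *Cxcl12*, *Mt2*, *Tnc*, *Col18a1* and *Alpl*, beside *Plk2*, encoding a polo-like kinase (618, 188, 517 and 540 reads; 3.66, 3.10 to 4.33), and *Arhgap31*, encoding a GTPase-activating protein (517, 204, 271 and 646; 2.82, 2.40 to 3.34). The BMP-2 side held *Vezt*, encoding the adherens junction protein vezatin (125, 679, 272 and 219 reads; 0.205, 0.168 to 0.248), *Cilp*, encoding a cartilage intermediate layer protein (241, 999, 1516 and 225; 0.269, 0.232 to 0.310), and *Etv5*, encoding an ETS factor downstream of FGF signals (125, 484, 324 and 293; 0.288, 0.234 to 0.351). For *Cilp*, as for *Igfbp2* and *Smpd3*, both libraries with IL-17A were low. These genes were named after their values were seen.

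The genes apart were also set against the untreated library. Of the 482 genes higher with IL-17A, 148 were 2-fold above the untreated library with IL-17A (7.77% of all tested genes were) and 221 were 2-fold lower with BMP-2 than without cytokine (5.68%). Of the 375 higher with BMP-2, 139 were 2-fold higher with BMP-2 (7.53%) and 145 were 2-fold lower with IL-17A (4.84%). The choice of genes that differ between the cytokines fixes much of this, so nothing is read from the difference to the background. The untreated library lay between the others in 345 of the 482 and 253 of the 375.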

How the data were processed

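The authors sequenced amplified full-length cDNA (SMART-Seq v4) on an Ion Proton and assigned reads in CLC Genomics Workbench, whose version and settings were not given in the sources used here. The submitters' notes name mm10. The deposited files give read counts per gene (total exon, unique exon and exon-exon reads) and RPKM; the RPKM of the authors was recomputed from the counts with a largest relative error of 1.3e-14. Here the counts were scaled by TMM over the 4 libraries (edgeR 4.0.16, R 4.3.3), and ratios, intervals and figures were made in Python 3.11.15 (numpy 2.4.6, pandas 2.3.3, scipy 1.17.1, matplotlib 3.10.9). The code for ratios and intervals was tried on simulated counts that held counting error only. That checks the code and not whether the intervals fit these data, whose spread was wider. Pearson's r of log2(RPKM + 1) between the 2 libraries, over genes (not independent replicates) was 0.943. Genes averaging 50 reads or more entered. Spliced reads made up 53.1 to 53.9% of exon reads and non-unique reads 10.6 to 11.0%.

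The genes, the 29 function lists and the 6 lists of other cells were chosen with earlier results of these data known. Named genes are the 15 highest and 15 lowest by the interval limit nearer 1 among those apart in all 3 kinds of reads, of which 4 are described, up to 4 members of each list by mean reads and up to 3 each way by ratio, and the genes of the study; others are named to complete a list. Results of some genes that the rule names are not reported here. Alternatives were library totals, DESeq2 1.42.0 size factors, the other read columns, a pseudocount of 0.5 reads per 1000000, filters at 10 and 200 reads and folds of 1.5 and 3; a filter at 300 reads was added after the data were seen.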

Additional observations from a re-analysis of the deposited data

How the results depend on the processing

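Scaling by library totals or DESeq2 size factors, unique reads and spliced reads kept the numbers of genes 2-fold apart (626 and 528) within 1.5 times. With a filter at 10 reads they were 1363 higher with IL-17A and 1233 higher with BMP-2, at 200 reads 105 and 82, and at 300 reads, chosen after seeing the data, 42 and 38. With a 1.5-fold threshold they were 1424 and 1291, and with a 3-fold threshold 233 and 173. The median of osteoblast transcription factor genes turned to 0.26 at 200 reads and 0.53 at 300 and was -0.07 in spliced reads. That of Wnt genes turned to 0.22 at 200 and at 300 reads. The filters at 200 and 300 reads drop *Sp7*, *Dlx3* and other members with few reads. The median of cartilage genes was -0.21 at 10 reads. The ratio of *Runx2* turned to 1.21 in spliced reads, while the other 87 of 88 ratios tried stayed on 1 side of 1 under every scaling and read column that gave a value. The median of IL-17 targets was 1.78 in spliced reads, 2.48 at 10 reads and 0.68 at 300, and that of chemokine ligands 1.64 in spliced reads, 1.28 at 10 reads and 2.33 at 200 and at 300. No paired analysis was possible because the conditions compared have 1 library each and so share fewer than 2 replicate numbers. Depth limits genes under about 100 reads most, and no interval here covers the spread between cultures.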

Other observations

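Values outside the lists described above were looked at after the data had been seen, and they carry no test. Of 11 genes known to respond to glucocorticoids, 3 were higher with BMP-2 than with IL-17A in all 3 kinds of reads, against 4.41% of all genes, and none was higher with IL-17A, with a median log2 ratio of -0.36. For 2 of the 11, neither among the 3, 1 library had fewer than 50 reads. *Tsc22d3*, encoding the glucocorticoid-induced leucine zipper protein, had 604 reads with IL-17A, 1563 with BMP-2, 2169 without cytokine and 558 with both, a ratio of 0.430 (0.391 to 0.473). *Pdk4*, encoding a kinase that inhibits pyruvate dehydrogenase, had 115, 396, 438 and 134 reads, a ratio of 0.323 (0.260 to 0.399). *Cdkn1c*, encoding the cell cycle inhibitor p57, had 100, 255, 399 and 42 reads, a ratio of 0.437 (0.343 to 0.552). In these 3 genes both libraries with IL-17A were low. *Fkbp5*, *Sgk1* and *Dusp1*, of the same list, were at 0.799 (0.734 to 0.869), 0.918 (0.863 to 0.976) and 0.825 (0.704 to 0.967), and *Klf9* lay the other way at 1.59 (1.37 to 1.86).

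The receptor gene *Il17ra* had 539 reads with IL-17A, 294 with BMP-2, 410 without cytokine and 138 with both, a ratio of 2.04 (1.77 to 2.36), with 1.88 (1.46 to 2.45) in spliced reads. *Il17rc*, encoding the other receptor chain, was at 1.18 (1.02 to 1.38), and *Traf3ip2*, encoding the adaptor Act1, at 1.83 (1.51 to 2.21). These were 3 of the 4 genes for IL-17 receptor chains and adaptors with enough reads. The remaining 1 lay the other way, 2-fold apart and higher with BMP-2 in exon reads, with a log2 ratio of -1.71. The median log2 ratio of the 4 was 0.56, and none was apart in all 3 kinds of reads. *Tnfsf11*, encoding the osteoclast factor RANKL, had 15 reads with IL-17A, 0 with BMP-2, 0 without cytokine and 16 with both. *Ccl8*, a chemokine gene, had 66, 0, 3 and 26 reads, at least 24.5-fold higher with IL-17A.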
